A study of Mus musculus with 34 samples.

Results

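The Polycomb genes described here are 10 genes that encode parts of the Polycomb repressive complexes PRC1 and PRC2. They were chosen by symbol, with no use of their values in the rule. *Pcgf3* and *Pcgf5* define the variant PRC1 that has been linked to hnRNPK. *Pcgf2*, *Bmi1* and *Cbx2* belong to canonical PRC1, *Rnf2* and *Ring1* are the catalytic subunits of PRC1, and *Ezh2*, *Eed* and *Suz12* form the core of PRC2. All 10 were found among the 22040 protein-coding genes of the mRNA-seq table. The study deleted *Hnrnpk* in the mouse limb bud and sequenced mRNA of E11.5 limb bud cells from 3 WT and 3 CKO biological replicates. CKO embryos carried *Prrx1-Cre* and *Hnrnpk* fl/fl, and WT libraries are labelled only as *Hnrnpk* WT. *Prrx1-Cre* acts in limb bud mesenchyme, while the limb bud also holds ectoderm, vessels and blood, and embryos of both sexes were used. The comparison asks whether the transcripts that supply the Polycomb machinery differed once *Hnrnpk* had been deleted. It is about mRNA only, since complex assembly and Polycomb histone marks were not measured in these libraries.

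PRC1 attaches ubiquitin to histone H2A, at the site named H2AK119, and PRC2 methylates histone H3, at the site named H3K27. Each PRC1 holds a RING1 protein and a PCGF protein, and the PCGF protein sets the type of complex. hnRNPK is an RNA-binding protein that is known to join PCGF3/5-PRC1 to *Xist* RNA, through which Polycomb marks are laid on the inactive X chromosome. In the limb bud, Polycomb is known for holding *Hox* genes silent outside their domains.

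The starts of these genes are rich in CG dinucleotides, a feature of mammalian Polycomb binding sites and also of the promoters of widely expressed genes. RefSeq promoters of 300 bases (GRCm38.p6, 250 bases before and 50 after the start) were at hand for 9 of the 10 genes, with 11 promoters in all. Of these, 8 held at least 20 CG dinucleotides, as did 26.5% of all 32851 promoters. *Suz12* had the most, with 41, and the middle one of the 3 starts of *Pcgf5* had the fewest, with 5. The promoters of the hnRNPK-linked pair are shown with CG in capitals, *Pcgf3* (plus strand, chr5:108461009-108461308) with 23 and the first start of *Pcgf5* (plus strand, chr19:36348079-36348378) with 34.
Pcgf3: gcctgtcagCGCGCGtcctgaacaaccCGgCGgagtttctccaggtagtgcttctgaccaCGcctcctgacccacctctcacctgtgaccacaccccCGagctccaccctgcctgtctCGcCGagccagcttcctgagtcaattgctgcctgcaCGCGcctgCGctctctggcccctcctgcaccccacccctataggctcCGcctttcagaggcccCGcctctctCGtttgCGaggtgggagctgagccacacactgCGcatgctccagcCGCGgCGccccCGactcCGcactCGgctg
Pcgf5: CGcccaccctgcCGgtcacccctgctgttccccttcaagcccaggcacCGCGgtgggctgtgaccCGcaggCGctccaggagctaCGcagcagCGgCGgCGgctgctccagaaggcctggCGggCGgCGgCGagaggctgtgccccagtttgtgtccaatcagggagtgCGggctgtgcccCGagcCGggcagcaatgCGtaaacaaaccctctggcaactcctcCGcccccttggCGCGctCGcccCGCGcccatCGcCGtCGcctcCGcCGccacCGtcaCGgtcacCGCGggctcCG

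The promoters of the 9 genes were also searched on both strands for the E2F letters TTTCCCGC, TTTCGCGC, TTTGCCGC and TTTGGCGC. E2F is the factor family that drives genes of DNA synthesis. Exact matches were found in 2 of the 11 promoters and in 2.26% of all promoters. The 2 were those of *Ezh2* (minus strand, chr6:47594981-47595280) and *Suz12* (plus strand, chr11:79992856-79993155). The promoter of *Eed*, also of the PRC2 core, held 0 matches. Both are shown with the match in capitals. A match of letters is a description and not a measured binding site.
Ezh2: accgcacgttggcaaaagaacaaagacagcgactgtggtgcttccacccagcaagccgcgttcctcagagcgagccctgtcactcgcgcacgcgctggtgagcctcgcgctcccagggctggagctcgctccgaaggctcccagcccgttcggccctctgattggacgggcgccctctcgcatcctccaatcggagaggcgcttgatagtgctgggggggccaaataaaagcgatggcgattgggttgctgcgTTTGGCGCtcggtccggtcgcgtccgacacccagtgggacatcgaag
Suz12: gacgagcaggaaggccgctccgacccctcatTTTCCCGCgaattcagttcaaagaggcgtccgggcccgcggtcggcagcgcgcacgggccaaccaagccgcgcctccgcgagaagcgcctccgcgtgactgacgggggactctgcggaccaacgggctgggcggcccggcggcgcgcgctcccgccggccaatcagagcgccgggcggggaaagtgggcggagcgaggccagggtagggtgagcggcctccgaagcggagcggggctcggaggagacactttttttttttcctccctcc

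FPKM, the fragments on a gene scaled by its length and by a divisor for each library, was the deposited unit, so levels of different genes can be compared per length. Each gene was compared on the log2(FPKM + 0.1) scale with limma, which shares the estimate of spread over genes. *P* values were adjusted by the Benjamini-Hochberg method over the 12305 genes whose FPKM averaged 0.5 or more over the 6 libraries, and a gene was called at an adjusted *p* under 0.05. All 10 Polycomb genes passed this filter. Reads on the listed genes ranged from 17140869 to 24624434 per library. They were 0.947 (CKO replicate 1) to 1.11 times (CKO replicate 2) the divisor recovered from the FPKM. In the same 2 libraries 5 globin genes took the smallest and largest part of the summed FPKM, 11.1% and 31.4%. The first principal component, with 52.6% of the variance, set replicate 1 of both genotypes apart from the other 4 libraries, so counts are also given for replicates 2 and 3 alone. *Hnrnpk* itself was at 193, 195 and 185 FPKM in WT replicates 1, 2 and 3 and at 127, 142 and 135 FPKM in CKO. The groups did not overlap, with a log2 fold change of -0.50 ± 0.13 (SE), a 95% interval of -0.80 to -0.21 and an adjusted *p* of 0.334. In replicates 2 and 3 alone the adjusted *p* was 0.0374. These whole-gene values also count reads outside the floxed exons. In bulk RNA, fewer cells of a type and less RNA per cell cannot be told apart.

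None of the 10 Polycomb genes was called in either direction, where 0.065% of all tested genes were called, 0.0569% higher and 0.00813% lower in CKO. None reached an unadjusted *p* under 0.05, against 8.31% of all tested genes, and none had WT and CKO values that did not overlap, against 14.5%. Limma voom on reads recovered from the FPKM also called 0 of the 10, against 0.0813% of all genes. With replicate numbers as a block, limma called 2.81% of all genes and voom 5.11%, and 0 of the 10 in each. The log2 fold changes ran from -0.10 for *Bmi1* to 0.18 for *Eed*, with a median of 0.067, beside a median of 0.0048 over all tested genes. The largest difference among the 10 was thus well under the -0.50 of *Hnrnpk* in size. The 95% intervals of all 10 genes lay between -1 and 1, so a 2-fold difference in either direction was outside each of them. For 8 of the 10 the interval also lay above the fold change of *Hnrnpk*, the exceptions being *Pcgf5* and *Cbx2*. In replicates 2 and 3 alone, where 15.1% of all genes were called, 0 of the 10 were called and *Eed* had the lowest adjusted *p*, 0.140.

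**Figure D1:**
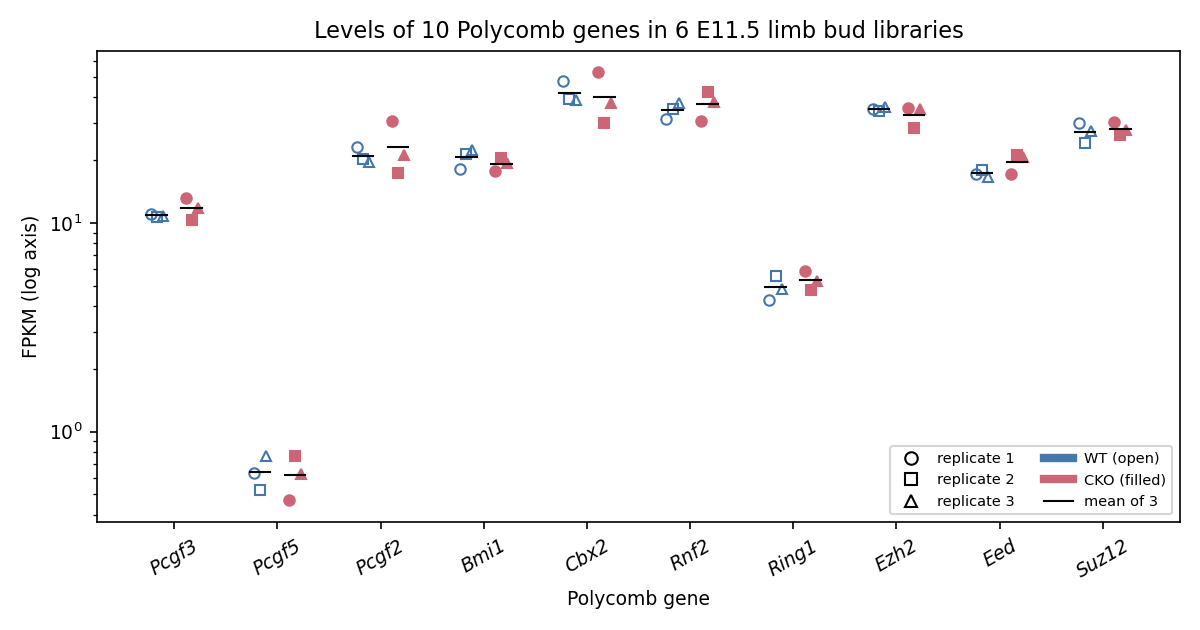
FPKM on a log axis for the 10 Polycomb genes in each library, with open symbols for WT, filled symbols for CKO, the symbol's shape for the replicate number and a line at the mean of 3. The WT and CKO points overlap for each gene, and the genes span from under 1 FPKM (*Pcgf5*) to over 30 FPKM in every library (*Cbx2*).

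*Pcgf3* (ENSMUSG00000033623, plus strand, chr5:108461232-108506976 on GRCm38) was the main transcript of the hnRNPK-linked pair. It was at 11.1, 10.7 and 10.8 FPKM in WT replicates 1, 2 and 3 and at 13.2, 10.4 and 11.8 FPKM in CKO. The highest and the lowest value were both in CKO, on either side of a narrow WT range. The log2 fold change was 0.11 ± 0.12 (SE), with a 95% interval of -0.18 to 0.40 and an adjusted *p* of 0.867. As a fold on the same scale, the interval ran from 0.885 to 1.32.

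Its paralog *Pcgf5* (ENSMUSG00000024805, plus strand, chr19:36348309-36460970) was the least abundant of the 10. WT libraries had 0.633, 0.523 and 0.766 FPKM and CKO libraries had 0.468, 0.765 and 0.628 FPKM, which rest on 107 to 211 reads per library. The 6 values were mixed, and same-numbered libraries differed by -0.37, 0.47 and -0.25 (log2, CKO minus WT). The log2 fold change was -0.05 ± 0.25 (SE) and its 95% interval, -0.62 to 0.53, was the widest of the 10. Folds from 0.649 to 1.44 lay within it, so differences of that size were not excluded by these libraries. Exons of *Pcgf5* share 60 bases with the antisense gene *F530104D19Rik*. *Pcgf3* was at 17.4 ± 3.22 times the FPKM of *Pcgf5* in WT and at 20.2 ± 7.45 times in CKO (mean ± SD, n = 3), and the ratio overlapped between groups (exact permutation test, two-sided, *p* = 0.7, where 0.1 is the smallest *p* that 3 against 3 libraries allow).

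The profile of *Pcgf3* over the 6 libraries, centred on its mean, was nearest to those of *Mical1*, *Pak2* and *Parp2*, with root mean square differences of 0.017, 0.026 and 0.028 on the log2 scale, while its own profile varied by 0.116. For *Pcgf5* the nearest were *Mfap1b*, *Cldn1* and *Zfp383*, at 0.068, 0.079 and 0.079, with 0.225 for its own profile. These are descriptions over 6 libraries picked from all tested genes.

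The 6 PCGF genes decide which PRC1 complexes can form, and no gene's share of their transcripts separated CKO from WT. Their summed FPKM was 76.7 ± 0.104 in WT and 77.0 ± 4.83 in CKO (mean ± SD, n = 3). *Pcgf3* took 14.2% ± 0.244 of it in WT and 15.3% ± 0.895 in CKO, and *Pcgf5* took 0.834% ± 0.158 and 0.816% ± 0.244. The largest shares belonged to the canonical pair, with 27.4% ± 2.42 in WT and 29.8% ± 7.16 in CKO for *Pcgf2* and 26.9% ± 2.78 and 25.1% ± 3.45 for *Bmi1*. *Pcgf6*, which defines a variant PRC1 that binds germline genes, took 21.3% ± 1.54 and 19.9% ± 2.79. Each of the 6 shares overlapped between groups, and exact permutation *p* ranged from 0.2 for *Pcgf3* to 0.9 for *Pcgf5*.

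**Figure D2:**
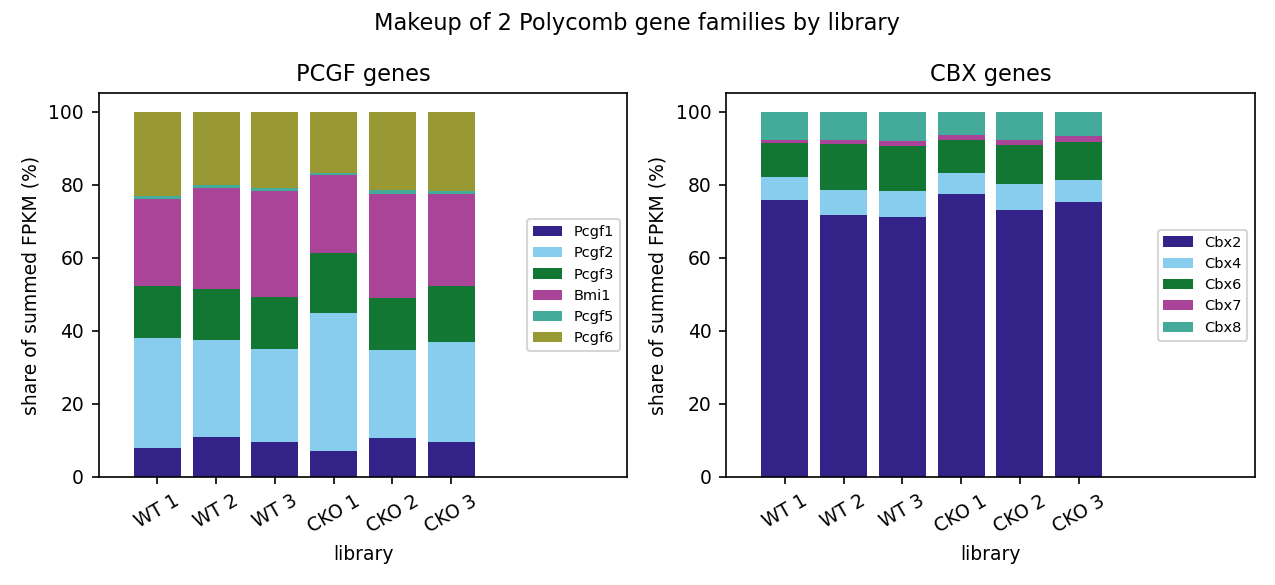
Stacked bars of the share (%) that each PCGF gene (left) and each CBX gene (right) takes of its family's summed FPKM, 1 bar per library. *Pcgf5* is the thinnest band of the PCGF genes, *Cbx2* holds over 70% of the CBX sum in every library, and the PCGF bar of CKO replicate 1 has the largest *Pcgf2* share, 37.8%.

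Of the canonical PRC1 genes, *Pcgf2* (MEL18) and *Bmi1* (PCGF4) are alternative partners of the RING1 proteins, and CBX2 binds methylated H3K27 and compacts chromatin. *Pcgf2* was at 23.1, 20.4 and 19.6 FPKM in WT and at 30.9, 17.3 and 21.2 FPKM in CKO replicates 1, 2 and 3. *Cbx2* was at 47.7, 39.2 and 39.0 FPKM in WT and at 52.8, 30.3 and 37.6 FPKM in CKO. In both genes CKO replicate 1 was the highest and CKO replicate 2 the lowest library, so the WT values lay inside the CKO range. Their spread within groups, 0.31 on the log2 scale for each, was larger than that of 75.4% of the tested genes for *Pcgf2* and 75.0% for *Cbx2*. The log2 fold change was 0.10 ± 0.21 (SE) for *Pcgf2*, with an interval of -0.39 to 0.58, and -0.09 ± 0.21 for *Cbx2*, with an interval of -0.58 to 0.39.

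*Bmi1* differed from these in having little spread. It was at 18.2, 21.4 and 22.3 FPKM in WT and at 17.7, 20.6 and 19.4 FPKM in CKO. It was lower in CKO within each replicate number, by -0.04, -0.06 and -0.20 (log2), and was the only 1 of the 10 genes lower in all 3 numbers. The WT and CKO ranges still overlapped, and the log2 fold change of -0.10 ± 0.13 (SE; 95% interval -0.40 to 0.19) had an adjusted *p* of 0.881.

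RING1 and RNF2 (RING1B) are the E3 ligases of every PRC1. *Rnf2* was at 31.4, 35.3 and 37.7 FPKM in WT and at 30.9, 42.2 and 38.0 FPKM in CKO, and it supplied 87.6% ± 1.17 of the pair's FPKM in WT and 87.2% ± 2.97 in CKO. *Ring1* was at 4.28, 5.59 and 4.85 FPKM in WT and at 5.89, 4.78 and 5.25 FPKM in CKO. The groups overlapped for both genes. The log2 fold changes were 0.08 ± 0.15 (95% interval -0.26 to 0.43) for *Rnf2* and 0.12 ± 0.15 (-0.23 to 0.46) for *Ring1*. Exons of *Rnf2* share 158 bases with *Trmt1l* on the opposite strand, and whether the authors counted by strand is not given in the sources used here.

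EZH2 is the methyltransferase of PRC2, EED binds the mark that PRC2 makes, and SUZ12 holds the complex together. *Ezh2* was at 35.4, 34.5 and 35.9 FPKM in WT and at 35.4, 28.6 and 35.3 FPKM in CKO. CKO replicate 2 was the lowest library, the other 5 lay between 34.5 and 35.9 FPKM, and the log2 fold change was -0.10 ± 0.13 (SE; 95% interval -0.39 to 0.20, adjusted *p* = 0.884). *Suz12* was at 30.2, 24.2 and 27.5 FPKM in WT and at 30.5, 26.3 and 27.9 FPKM in CKO. It was higher in CKO within each number, by 0.02, 0.12 and 0.02 (log2), and was the only 1 of the 10 with that pattern, with a log2 fold change of 0.05 ± 0.13 (95% interval -0.25 to 0.35).

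*Eed* (ENSMUSG00000030619, minus strand, chr7:89954654-89980983) showed the largest difference of the 10. It was at 17.3, 18.0 and 16.6 FPKM in WT and at 17.2, 21.2 and 20.7 FPKM in CKO. CKO replicates 2 and 3 were above every WT library, while CKO replicate 1 lay within the WT range. The log2 fold change was 0.18 ± 0.12 (SE), with a 95% interval of -0.11 to 0.47 and an adjusted *p* of 0.768. In replicates 2 and 3 alone it was 0.27 ± 0.13, with an unadjusted *p* of 0.0363 and an adjusted *p* of 0.140. In that fit 3581 of the 12319 tested genes had an unadjusted *p* under 0.05, as did 1 of the 10. The FPKM of *Eed* per FPKM of *Ezh2* was 0.491 ± 0.0288 in WT and 0.604 ± 0.129 in CKO, with overlapping values (exact permutation *p* = 0.3). Exons of *Eed*, *Ezh2* and *Suz12* share 261, 174 and 178 bases with noncoding genes on the opposite strand.

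**Figure D3:**
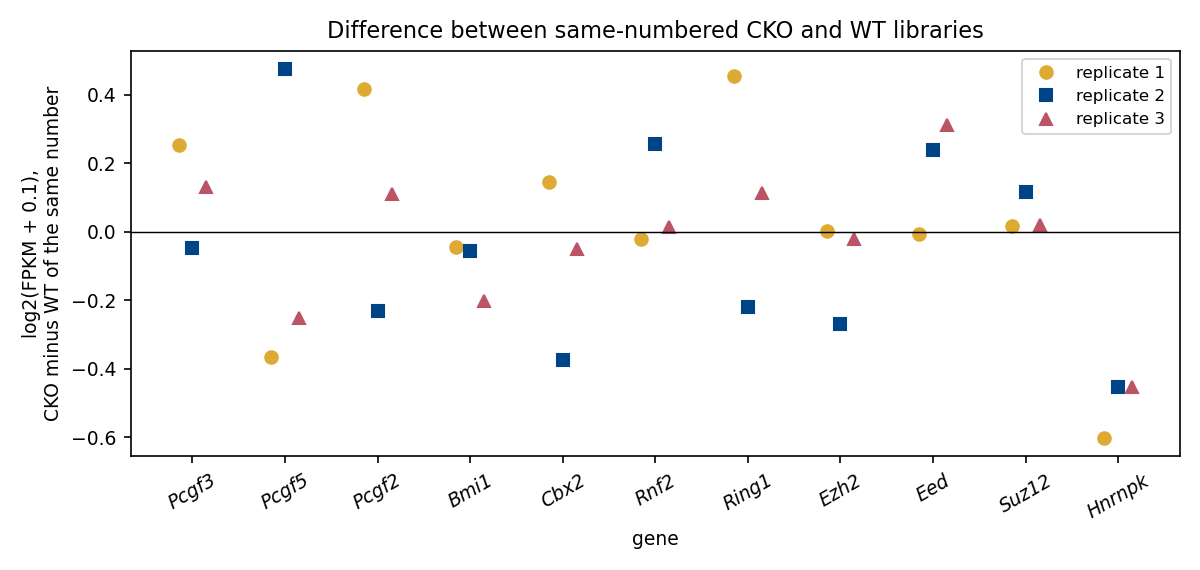
Difference in log2(FPKM + 0.1) between the CKO and the WT library of the same replicate number, for the 10 Polycomb genes and *Hnrnpk*, with 1 symbol per number. *Hnrnpk* is between -0.60 and -0.45 in all 3 numbers, while 8 of the 10 Polycomb genes have differences on both sides of 0.

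Ordered by level in WT, the genes were *Cbx2* (42.0 ± 4.97 FPKM, mean ± SD, n = 3), *Ezh2* (35.2 ± 0.717), *Rnf2* (34.8 ± 3.15), *Suz12* (27.3 ± 2.98), *Pcgf2* (21.0 ± 1.84), *Bmi1* (20.6 ± 2.15), *Eed* (17.3 ± 0.658), *Pcgf3* (10.9 ± 0.184), *Ring1* (4.91 ± 0.659) and *Pcgf5* (0.640 ± 0.122). Neighbours in this order did not overlap in their WT libraries, except *Ezh2* with *Rnf2* and *Pcgf2* with *Bmi1*. In CKO the order by mean was *Cbx2*, *Rnf2*, *Ezh2*, *Suz12*, *Pcgf2*, *Eed*, *Bmi1*, *Pcgf3*, *Ring1* and *Pcgf5*. Each neighbour from *Cbx2* to *Bmi1* overlapped the next, although the lowest value of *Suz12*, 26.3 FPKM, and those of the 3 genes above it lay over the highest values of *Eed* and *Bmi1*, 21.2 and 20.6 FPKM.

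The wider machinery was described from 42 other Polycomb genes, of which 41 passed the filter and *Phf19*, a PRC2 accessory factor, did not. None was called, against 0.065% of all tested genes, and none reached an unadjusted *p* under 0.05, against 8.31%. Limma voom also called 0, against 0.0813%. With replicate numbers as a block, limma gave 3 of the 41 and 2263 of all 12305 tested genes an unadjusted *p* under 0.05. Voom with the block gave 5 of the 41 and 2575 of 12294, and neither block fit called any of the 41. In replicates 2 and 3 alone 3 of the 41 (7.32%) were called, against 15.1% of all genes. Their median log2 fold change was -0.0086, with 19 higher and 22 lower in CKO. In 3 of the 41 (7.32%) WT and CKO did not overlap, against 14.5% of all tested genes, and all 3 were higher in CKO, as were 5.63% of all tested genes.

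Those 3 genes were *Ezh1*, *Mtf2* and *Dcaf7*. *Ezh1*, the second PRC2 methyltransferase, was at 2.65, 2.57 and 2.72 FPKM in WT and at 3.32, 3.05 and 3.01 FPKM in CKO, a log2 fold change of 0.23 ± 0.12 (SE; adjusted *p* = 0.694). Its share of the FPKM of *Ezh1* and *Ezh2* was 6.99% ± 0.0635 in WT and 8.69% ± 0.906 in CKO, which did not overlap (exact permutation *p* = 0.1, the smallest possible). *Mtf2*, which recruits PRC2 to CG-rich DNA, had a mean of 28.7 ± 2.09 FPKM in WT and 33.5 ± 2.90 in CKO, and *Dcaf7*, a partner of PCGF3/5-PRC1, had 25.0 ± 0.844 and 29.0 ± 1.79. Their log2 fold changes were 0.22 ± 0.12 and 0.21 ± 0.11, with adjusted *p* of 0.703 and 0.676.

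**Figure D4:**
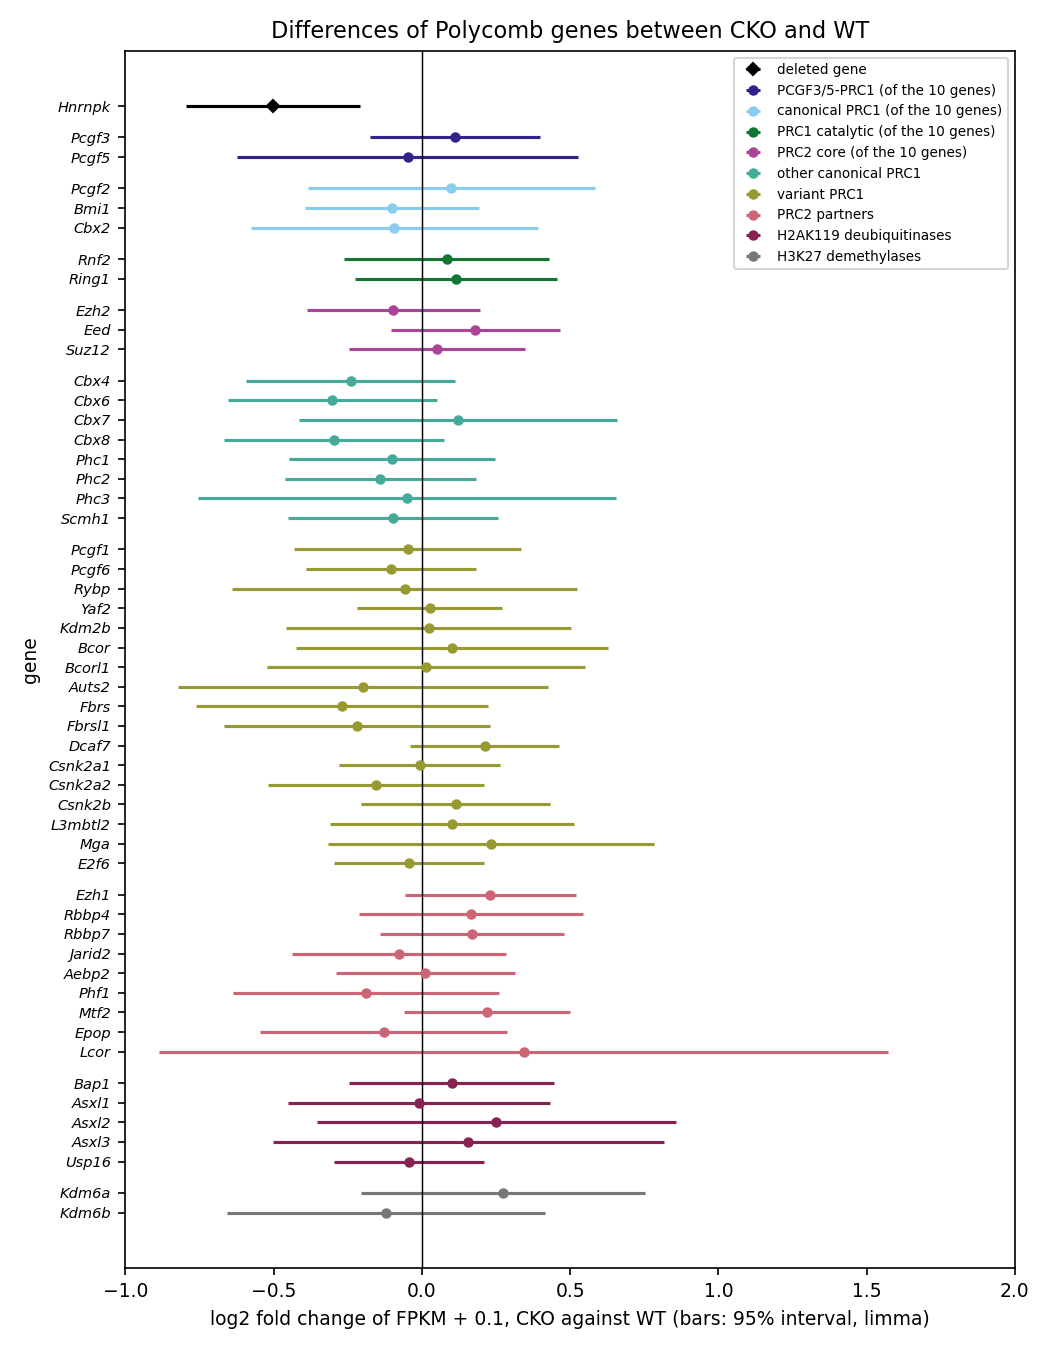
Log2 fold change of CKO against WT (points) with its 95% interval from limma (bars) for *Hnrnpk*, the 10 Polycomb genes and 41 other Polycomb genes, coloured by complex. The interval of *Hnrnpk* lies below 0, those of all 51 Polycomb genes include 0, and that of *Lcor* is the widest.

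Among the other canonical PRC1 genes, 7 of 8 had lower means in CKO on the log2 scale, with a median of -0.12. By replicate number the median was 0.017, -0.30 and -0.23, so it was not below 0 in number 1. The lowest value was that of *Cbx6*, -0.30 ± 0.15, and the highest that of *Cbx7*, 0.12 ± 0.23. *Cbx2* nevertheless kept the bulk of the CBX transcripts, 72.8% ± 2.57 in WT and 75.2% ± 2.18 in CKO. Variant PRC1 genes were split, with 8 higher and 9 lower, from -0.27 ± 0.21 for *Fbrs*, a partner in PCGF3/5-PRC1, to 0.23 ± 0.24 for *Mga*, a partner of PCGF6. PRC2 partners had 6 higher and 3 lower with a median of 0.17, from -0.19 ± 0.19 for *Phf1* to 0.34 ± 0.53 for *Lcor*. Of the H2AK119 deubiquitinase genes, which oppose PRC1, 3 were higher and 2 lower, from -0.04 ± 0.11 for *Usp16* to 0.25 ± 0.26 for *Asxl2*.

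In replicates 2 and 3 alone *Cbx6* (log2 fold change -0.50, adjusted *p* = 0.00984), *Phf1* (-0.47, 0.0174) and the H3K27 demethylase gene *Kdm6a* (0.60, 0.00132) were called. In replicate 1 each had the opposite sign, with 0.09 for *Cbx6*, 0.36 for *Phf1* and -0.38 for *Kdm6a*. Exons of *Phf1* share 1370 of 3486 bases with *Cuta* on the opposite strand. Those of *Cbx6* share 563 of 10609 bases with *Npcd* on the same strand. *Kdm6a* lies on the X chromosome, escapes X inactivation and has the Y-linked paralog *Uty*. It was at 10.8, 6.44 and 7.38 FPKM in WT and at 8.30, 10.8 and 10.2 FPKM in CKO, and *Uty* was at 1.80, 2.099 and 2.48 FPKM in WT and at 3.18, 1.28 and 0.767 FPKM in CKO. The 3 libraries with the highest *Kdm6a* were those with the lowest *Uty*. The summed FPKM of *Ddx3y*, *Eif2s3y*, *Kdm5d* and *Uty* was 17.1, 21.0 and 27.04 in WT and 33.2, 13.0 and 8.57 in CKO, and its part in the *Kdm6a* values was not tested. In replicates 2 and 3 alone all 4 were called lower in CKO, with log2 fold changes of -0.91, -1.60, -0.96 and -1.12 (highest adjusted *p* 0.000152). Over all 6 libraries none of the 4 was called, with -0.25, -0.82, -0.28 and -0.49, and in replicate 1 each was higher in CKO. Over all 6 libraries the other demethylase gene, *Kdm6b*, was not called, at -0.12 ± 0.23.

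**Figure D5:**
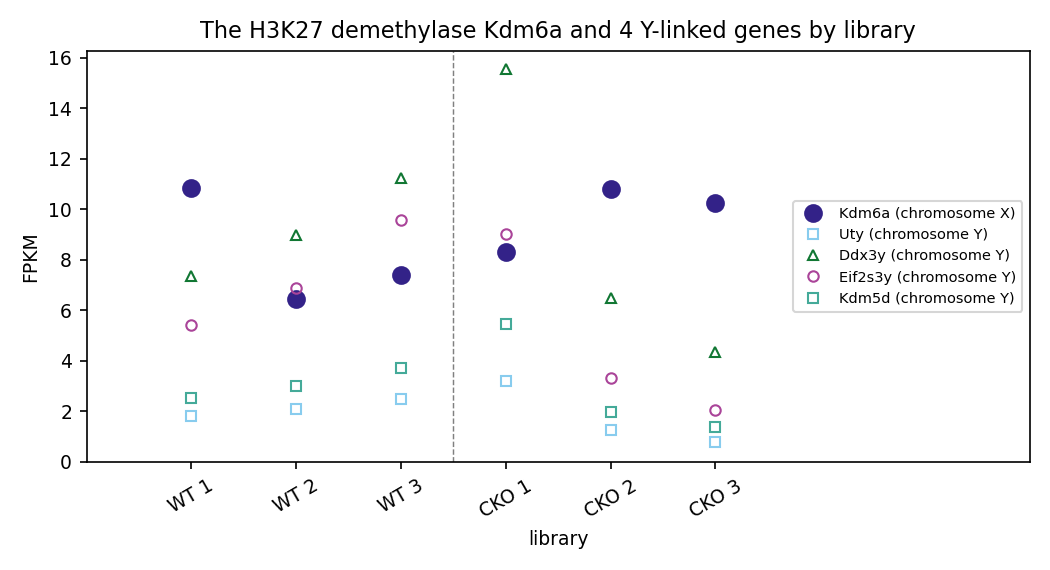
FPKM of the X-linked H3K27 demethylase gene *Kdm6a* (filled) and of 4 Y-linked genes (open) in each of the 3 WT and 3 CKO libraries, separated by a dashed line. *Kdm6a* is highest in WT replicate 1 and CKO replicates 2 and 3, the 3 libraries with the lowest Y-linked values.

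X-linked genes were counted because of the known tie between hnRNPK, PCGF3/5-PRC1 and *Xist*. Of 948 listed, 426 were tested and 1 was called, higher in CKO. This was *Eda2r*, a p53 target, named after its values were seen. The median log2 fold change was 0.013 for X-linked and 0.0041 for autosomal genes, and 13.1% of X-linked against 14.6% of autosomal genes did not overlap between groups. By replicate number the X-linked median was -0.053, 0.12 and -0.033, so it changed sign between numbers. The Y-linked sums above also differed between same-numbered libraries, and their part in these medians was not tested.

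Genes that Polycomb is known to hold silent were at low levels in both genotypes. Of 53 such genes (the Ink4 locus, regulators of other lineages and germline genes), 3 passed the filter and 0 were called. Limma voom called 0, and none of the 3 reached an unadjusted *p* under 0.05. Of all tested genes limma called 0.065% and voom 0.0813%, and 8.31% had an unadjusted limma *p* under 0.05. With 3 genes, counts of 0 cannot be told from these shares. *T* (brachyury) was at 0.592 ± 0.196 FPKM in WT and 0.668 ± 0.185 in CKO, *Stag3* at 1.49 ± 0.194 and 1.28 ± 0.498, and *Sycp3* at 1.25 ± 0.318 and 1.20 ± 0.400, with log2 fold changes of 0.16 ± 0.29, -0.26 ± 0.27 and -0.07 ± 0.27. Exons of *Sycp3* share 660 of 1264 bases with *Chpt1* on the opposite strand. Of the 50 below the filter, 7 were listed at 0 in all libraries. Among the 50 the highest single value was 0.628 FPKM, for *Sox17* in WT replicate 1. CKO means were above WT for 16 and below for 27. This split was not set beside that of other genes below the filter. The 50 also lay near 0, with a median of their means of 0.025 FPKM in WT and 0.016 FPKM in CKO. The summed FPKM of the 43 Ink4 and lineage genes was 2.91 to 3.46 in WT and 2.16 to 2.43 in CKO, which did not overlap. Each of the 43 was at 0.859 FPKM or less, so a few genes can move this sum. Among them *Eomes* fell most in mean, from 0.328 FPKM in WT (0 in replicate 1) to 0.0393 in CKO. *Lhx1* was next, from 0.298 to 0.0953 FPKM, while *T* had the largest rise. The sum of the 10 germline genes was 3.01 to 3.83 in WT and 2.62 to 3.38 in CKO, which overlapped. None of the 50 had CKO values all above WT, as 5.63% of the tested genes had. CKO values were all below WT for 3 of the 50 (*Pax6*, *Lhx1* and *Smc1b*). This pattern was found in 8.86% of the tested genes, which lie at higher levels. These 3 rest on few reads per library, 1 to 7 for *Pax6*, 5 to 30 for *Lhx1* and 1 to 21 for *Smc1b*. At the Ink4 locus, which encodes cell cycle inhibitors, *Cdkn2b* was at 0.0796, 0.300 and 0.0987 FPKM in WT and at 0.0793, 0.263 and 0.150 FPKM in CKO, and *Cdkn2a* was at 0.0891 FPKM or less in every library, with 3 listed at 0.

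The cell makeup of the libraries was described by marker lists. All 9 limb mesenchyme markers were detected, and their summed FPKM, 400.0 to 453 in WT and 356 to 397 in CKO, did not overlap. Of the 9, 7 were lower in CKO and 0 were called. In 3 (33.3%) WT and CKO did not overlap, against 14.5% of all tested genes. Of these 3, *Tbx5* and *Pdgfra* were lower in CKO and *Pitx1* was higher, at 0.25 ± 0.12 (log2). *Tbx5*, a forelimb regulator at -0.93 ± 0.24 (log2, adjusted *p* = 0.358), was called with replicate numbers as a block (adjusted *p* = 0.00734). Proliferation genes, with which *Ezh2* is known to vary, summed to 877 to 918 FPKM in WT and 841 to 1179 in CKO. Of the 12, 11 were higher and 0 were called. In 3 (25%) WT and CKO did not overlap, all higher in CKO, a pattern that 5.63% of all tested genes had. These 3 were *Mcm2*, *Mcm3* and *Mcm5*. By replicate number the median of the 12 was -0.087, 0.30 and 0.18, so it was below 0 in number 1. The paper reported suppressed proliferation in CKO by Ki67 staining and in cultured limb bud cells, which are other measures than mRNA. The proliferation sum was highest in CKO replicate 2, the library with the lowest *Ezh2*, 28.6 FPKM. Erythroid markers, 8 genes, ranged from 35803 to 62043 FPKM in WT and from 29263 to 138695 in CKO, with the highest sum in CKO replicate 2 and the lowest in CKO replicate 1. These are the libraries at the opposite ends of *Pcgf2* and *Cbx2*. Summed FPKM was 46.9 to 78.0 in WT and 51.7 to 80.2 in CKO for ectoderm (8 genes), 18.2 to 26.5 and 13.0 to 21.8 for endothelium (5), 12.3 to 19.7 and 14.0 to 23.5 for macrophages (5), 17.7 to 35.4 and 30.4 to 36.7 for muscle (5) and 3.27 to 7.94 and 6.56 to 8.29 for neural crest and Schwann cells (5). No marker was at 0 in all libraries, and the part of these lists in the Polycomb values was not tested.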

How the data were processed

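RNA-seq was analysed for 3 WT and 3 CKO libraries, grouped by their labels. Other assays of the study were not analysed here. FPKM per gene were deposited by the authors, from stranded mRNA libraries. The submitters' processing notes list cutadapt 2.5, HISAT2 2.1.0, featureCounts 1.6.3 and mm10, and the annotation, strand setting and scaling are not given in the sources used here. FPKM times GENCODE vM21 exon length gave whole reads, within 0.1 reads, in all libraries for 92.6% of matched genes (99.5% matched), and intervals cover the spread between libraries.

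Log2(FPKM + 0.1) was fitted with limma 3.58.1 (R 4.3.3, eBayes with a trend, two-sided). Single ratios and shares were compared by exact two-sided permutation tests. On simulated data with 200 of 12305 genes changed, this fit recovered 92% of 4-fold and 56% of 2-fold changes, with 1 false call. With replicate numbers as a block it recovered 92% and 46%, with 2 false calls. In the real data the block instead raised the genes called from 8 to 346. The simulated replicates thus differed from the real ones, and these shares do not give the rate of detection in these libraries. Genes and lists were chosen with earlier results of these data known. Named are the 10 genes, *Hnrnpk*, the Y-linked genes, the largest rise and fall and any called gene of each Polycomb or target list, and the 3 nearest profiles. Other genes were named after their values were seen.

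Replicate numbers come from the labels. Deviations from group means correlated across genes at 0.64, 0.44 and 0.27 for numbers 1, 2 and 3, each over 0.1, and the fits with a block therefore treat them as pairs, although no source says what they stand for. Crossed pairs of numbers 2 and 3 correlated as much, at 0.49 (WT 2 with CKO 3) and 0.31 (WT 3 with CKO 2), while pairs of number 1 with the others were below 0, so the pairing rests on replicate 1.

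Alternatives were other pseudocounts (0.5 and 1), other filters, median-ratio and quantile scaling, other estimates of spread, the block, voom, and fits that leave out each library.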

Additional observations from a re-analysis of the deposited data

How the results depend on the processing

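Over 18 alternatives, 0 of the 10 Polycomb genes was called under each, and their lowest adjusted *p* was 0.140. With the replicate block, 346 genes in all (2.81%) and 14 of 426 X-linked genes were called. It called 0 of the 10 and 0 of the other 41 Polycomb genes, so the pairing changed no call reported for these Polycomb genes. Genes called in all were 14 with quantile normalization, 0 with an ordinary linear model, 628 with voom and the replicate block, and 1863 in replicates 2 and 3 alone, an alternative added after seeing the data. Leaving out 1 library gave 1 to 23, with 23 when CKO replicate 1 was left out, 3 for WT replicate 2, and 1 each for WT replicate 3 and for CKO replicates 2 and 3. X-linked calls were 0 of 426 with the ordinary model, 24 of 426 with voom and the block, and 76 of 425 in replicates 2 and 3 alone. Of all genes, voom with the block called 5.11% and replicates 2 and 3 alone 15.1%. Without 1 library there were 1 to 3 X-linked calls (3 without CKO replicate 1). Other Polycomb genes had 3 calls in replicates 2 and 3 alone. *Hnrnpk* was called there and with voom and the block (-0.49, adjusted *p* = 0.0237).

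The median of the 10 was 0.0093 with quantile normalization, -0.0067 in replicates 2 and 3 alone, and 0.010 to 0.097 without 1 library. Signs turned for 7 of the 10. With quantile normalization *Pcgf5* was 0.0020 and *Suz12* -0.0088, and in replicates 2 and 3 alone *Pcgf5* was 0.11, *Pcgf2* -0.060 and *Ring1* -0.054. With 1 library left out, *Pcgf5* ranged from -0.19 to 0.11 (above 0 without WT replicate 3, 0.072, or CKO replicate 1), *Pcgf2* from -0.13 (without CKO replicate 1) to 0.29, *Suz12* from -0.033 (without WT replicate 2) to 0.12, and -0.0071 without CKO replicate 1. *Cbx2* ranged from -0.31 to 0.093, *Rnf2* from -0.017 to 0.21 and *Ezh2* from -0.15 to 0.0055, each turning without CKO replicate 2, and *Cbx2* was 0.0027 without WT replicate 1. The cause was not tested. *Pcgf3*, *Bmi1* and *Eed* kept their sign under all 18, and *Pcgf5* has no value at a mean FPKM of at least 1. *Pcgf5* has the fewest reads of the 10.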
